A study of Mus musculus with 2 samples.

Results

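The genes described here are 10 members of the MYC, MAX and MXD transcription factor network, together with Txnip. They were chosen by gene name: Myc and Mycn, Max, Mxd1, Mxd3, Mxd4, Mxi1, Mnt, Mlx and Txnip. Earlier results of these data were known when they were chosen. All 10 were found among the 54680 loci of the deposited table, each at a single locus. RNA was sequenced from CT26 cells, a mouse colon cancer line, in 2 groups of 1 library each. In the knockdown group, CT26shSetdb1, the cells had received a lentivirus with a short hairpin against the Setdb1 mRNA. Setdb1 encodes an enzyme that methylates lysine 9 of histone H3. In the control group, CT26shCtrl, labelled wild type, the cells had received a lentivirus with the empty knockdown vector. Both groups came from the same line, were grown in RPMI 1640 with 10% serum and were harvested on day 6. By then, per the labels, the cells with the hairpin had differentiated. A single hairpin is named, and whether the cells were clones or pools is not stated. With 1 library per group there is no replicate check, so the differences below describe these 2 libraries and not the conditions.

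MYC proteins are basic helix-loop-helix leucine zipper factors that bind DNA only as heterodimers with MAX. MYC-MAX dimers activate genes of growth, nucleolar function and metabolism from E-box sites, whereas MXD proteins, MXI1 and MNT compete for MAX at the same sites and recruit the SIN3 and histone deacetylase corepressors. In many lineages MXD proteins replace MYC as cells stop dividing and differentiate. MLX is the MAX-like partner of the glucose-sensing factors MondoA (Mlxip) and ChREBP (Mlxipl), whose best known target is Txnip, an alpha-arrestin that binds thioredoxin and limits glucose uptake.

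The factors of this network bind E-box sites, so the promoters of the members were searched for such sites. RefSeq promoter windows on GRCm38.p6, from 250 bases before to 50 bases after each annotated start, were at hand for 9 of the 10 members, all but Myc. The E-box CACGTG, the same on both strands, stood in the windows of 4 of these 9 members, Max, Mxd4, Mnt and Mlx. Of all 32851 promoter windows 7.15% held it, and per gene 2187 of 27025. Among measured genes with a window the share was 12.4% of 7650, and 4 of the 8 members so measured held it. The 30 bases around each match are given 5′ to 3′ on the strand of the gene, with the E-box in capitals, from chr12:76962234-76962263 (minus strand), chr11:74830789-74830818 (plus), chr11:101087238-101087267 (plus) and chr5:34187912-34187941 (minus).
Max: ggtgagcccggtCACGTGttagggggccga
Mnt: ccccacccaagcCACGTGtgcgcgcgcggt
Mlx: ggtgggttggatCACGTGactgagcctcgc
Mxd4: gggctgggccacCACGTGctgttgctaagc
Positions count from the RefSeq start of each window, which can differ from the gene coordinates given below. The Max E-box straddles its RefSeq start, with its first base at position -3, and that of Mlx begins at -40. The Max E-box, at 76962246 to 76962251, lies outside the Max gene model of the deposited values, which reaches 76962201. Those of Mnt and Mxd4 begin at -123 and -219.

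The Txnip promoter held no CACGTG. It held 2 E-box-like sites of the form CACGNG separated by 5 bases, the arrangement of a carbohydrate response element, which MLX dimers bind. This paired form, CACGNG followed after 5 bases by CACGNG and searched on both strands, stood in 16 of the 32851 windows (0.0487%), and Txnip was the only member with it. The single site CACGNG, which takes in CACGTG, was far more common, at 27.5% of windows. Another paired form, CANGNG followed after 5 bases by CNCNTG, was in 0.557% of windows and in no member. The 250 bases before the Txnip start, chr3:96557707-96557956 on the plus strand, are given with the paired sites in capitals. The window held 2 more CACGNG sites, read on either strand, which begin at -160 and -52 and stand in lower case.
Txnip: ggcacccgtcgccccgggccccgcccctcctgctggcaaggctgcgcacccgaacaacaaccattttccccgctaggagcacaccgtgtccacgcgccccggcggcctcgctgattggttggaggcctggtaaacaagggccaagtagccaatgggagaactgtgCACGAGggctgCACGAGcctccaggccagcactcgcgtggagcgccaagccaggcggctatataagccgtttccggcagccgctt
The pair begins 85 bases before the start, at 96557872 to 96557888 on chromosome 3. The stretch lies outside the Txnip gene and within the antisense gene Gm15441. No member but Txnip had more than 1 such site in a window, and the windows of Mxd3 and Mycn had none. A match describes the letters in these windows and is not evidence that a factor was bound.

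**Figure D1:**
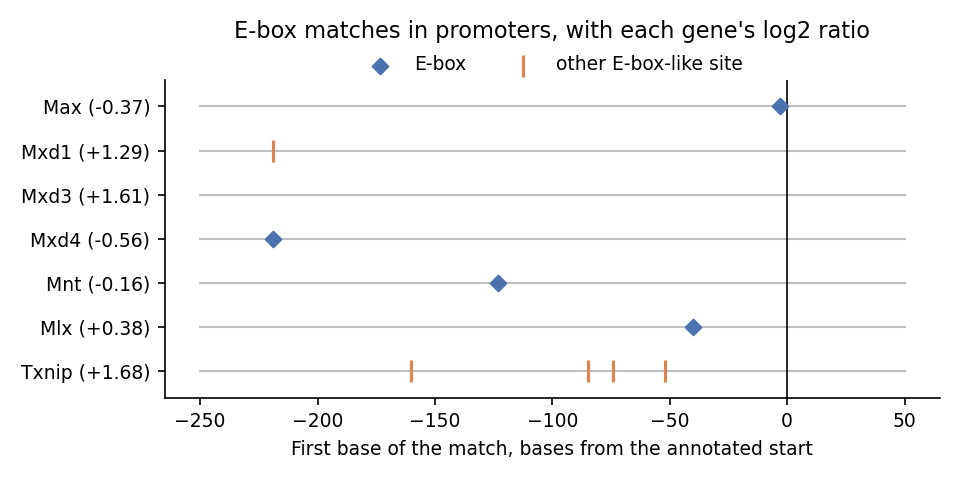
Positions of E-boxes (diamonds) and other E-box-like sites (bars) in the promoter windows of 7 members, in bases from the annotated start, with each gene's log2 ratio in brackets. The 4 members with an E-box have ratios between -0.56 and 0.38, and Txnip is the member with 2 sites close together, at -85 and -74. Mxi1, which has 3 windows, and Mycn are not drawn.

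Levels are given in FPKM, fragments divided by gene length and a sequencing depth, a scale that allows genes to be compared per length. The deposited values use the same depth, 18731117, for both libraries, so they are not scaled to each library's own total. Differences are on the log2 scale, as the ratio of (FPKM + 1) in CT26shSetdb1 to that in CT26shCtrl, and a gene was called higher or lower at a 2-fold difference or more. Whole reads could be recovered from the deposited values, 18421604 for the control library and 19045830 for the knockdown library, 1.03 times as many. Read ratios are relative to these totals, with 95% exact (Clopper-Pearson) intervals. These cover counting error only, since 1 library per group gives no measure of variation between cultures or preparations. PCR copies are not independent molecules, so the intervals can be too narrow even for counting error. Neither scale is per cell. Fewer cells of a kind and less RNA per cell therefore cannot be told apart, and a change in total RNA per cell cannot be seen. Setdb1 itself was at 10.4 FPKM in CT26shCtrl and 2.47 FPKM in CT26shSetdb1, a read ratio of 0.229 (0.202 to 0.259). Of the markers fixed for colon epithelium, Epcam, Cdh1, Cdx1 and Lgr5 had no reads in either library. Of 8 fibroblast and mesenchymal markers, 6 reached 1 FPKM. Vim was at 752 FPKM in CT26shCtrl and 835 FPKM in CT26shSetdb1, and Col1a2 at 139.6 and 94.1 FPKM. Thy1 had no reads in either library, and Acta2 had 1 and 0. Krt18, Krt19 and Krt20 were called higher in CT26shSetdb1, with summed reads of all 12 epithelial markers of 1218 and 3795. Most of these reads were of Krt18 (1016 and 2423) and Krt20 (183 and 1285). Krt19, with 1 and 53 reads, reached 1 FPKM in CT26shSetdb1 alone. Krt8 had 7 and 8 reads, Vil1 1 and 7, Cdx2 5 and 18, Muc2 3 and 1, and Cldn7 2 and 0. The part of the epithelial markers in the results below was not tested. Of 7 leukocyte markers, Cd68 alone reached 1 FPKM, at 10.4 and 100.2 FPKM, while Ptprc had 0 and 4 reads. The 4 endothelial markers had 1 read in all.

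Myc was lower in CT26shSetdb1, and 3 of its antagonists and Txnip were higher. Of the 10 members, 9 were at 1 FPKM or more in both libraries. Among these, 4 were called higher and 1 lower, 55.6% together, against 11.7% of the 10671 genes that reached 1 FPKM in either library. By direction, the background was 6.81% higher and 4.85% lower. Because the members were chosen with earlier results of these libraries known, these shares describe the members and are no support for a difference in the network. At 1.5-fold the members' counts were again 4 and 1, against 16.9% and 14.3% of all genes. The median log2 ratio of the 9 was 0.38, and that of all 10671 genes was -0.000391, with quartiles of -0.36 and 0.38.

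**Figure D2:**
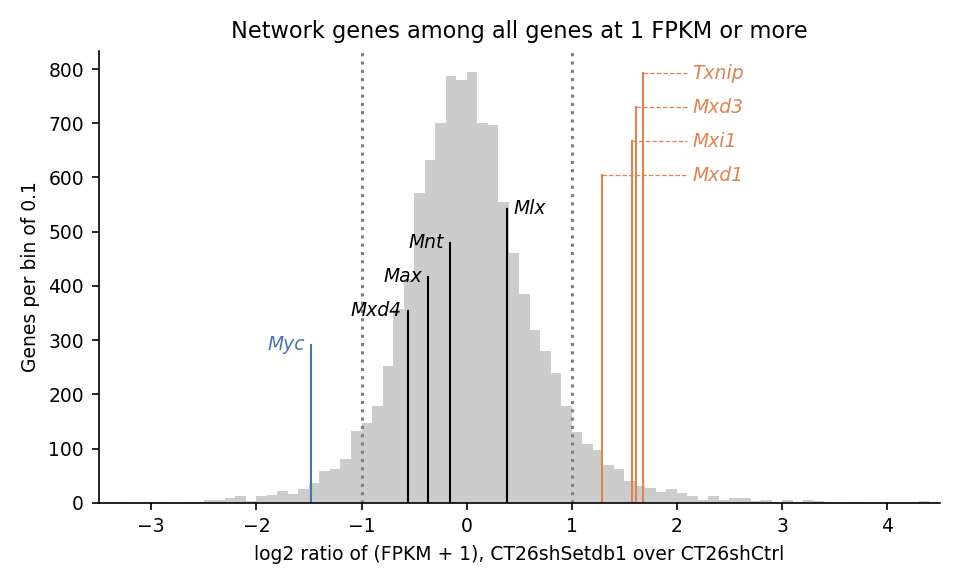
Histogram of log2 ratios of (FPKM + 1), knockdown over control, for the 10671 genes tested, with 9 members marked by lines of arbitrary height. Dotted lines mark 2-fold. Myc, at -1.48, lies to the left of them, and Mxd1, Mxi1, Mxd3 and Txnip lie to the right, between 1.29 and 1.68.

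Myc (ENSMUSG00000022346), the activator of the network, lies on the plus strand of chromosome 15 from 61985391 to 61990374. Its level was 86.5 FPKM in CT26shCtrl (4400 reads) and 30.4 FPKM in CT26shSetdb1 (1547 reads). The log2 ratio was -1.48, at percentile 1.43 of the genes measured. In reads Myc was 2.94-fold lower (2.77 to 3.12). No other gene of the table overlaps it.

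Mycn (ENSMUSG00000037169, chromosome 12, 12936093 to 12941914), the MYC paralog of embryonic and neural progenitors, had 0 reads in CT26shCtrl and 1 in CT26shSetdb1. A count of 0 allows up to 0.0486 FPKM, at a floor of 3 reads. Mycl, the remaining paralog, had 2 reads and 0. Myc was therefore the one MYC-family mRNA at a measurable level in either library.

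Max (ENSMUSG00000059436, chromosome 12, 76937269 to 76962201), the shared partner of MYC and the MXD proteins, was at 18.1 FPKM in CT26shCtrl and 13.8 FPKM in CT26shSetdb1. Its log2 ratio of -0.37 was inside the 2-fold limits, and its read ratio was 0.738 (0.677 to 0.804). Max was thus lower beyond counting error, but by less than Myc.

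The 5 antagonists divided into 3 that were higher in CT26shSetdb1 and 2 that were somewhat lower. Mxd1 (ENSMUSG00000001156, chromosome 6, 86647042 to 86669161), the first described MXD repressor and an inducer of cell-cycle exit in myeloid and epithelial cells, was at 1.59 FPKM in CT26shCtrl (211 reads). In the knockdown library it was at 5.34 FPKM (708 reads), a log2 ratio of 1.29, with 3.25 times the reads (2.78 to 3.80). Mxd1 had the lowest level of the antagonists in both libraries, so the added 1 FPKM reduces its log2 ratio most. With 0.1 FPKM added instead, the log2 ratio was 1.69.

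Mxd3 (ENSMUSG00000021485, chromosome 13, 55325168 to 55329823), the member of the family found in S phase of dividing cells, was at 9.92 FPKM in CT26shCtrl (440 reads) and 32.4 FPKM in CT26shSetdb1 (1437 reads). The log2 ratio was 1.61, with a read ratio of 3.16 (2.84 to 3.52). The Mxd3 model shares 105 bases with Prelid1 on the opposite strand, which had 15102 and 20487 reads. Whether counting used strand is not stated, and the part of the shared bases in the Mxd3 values was not tested. The Prelid1 read ratio was 1.31.

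Mxi1 (ENSMUSG00000025025, chromosome 19, 53310506 to 53375810), also called MAD2 and a MYC antagonist at E-boxes, was at 7.92 FPKM in CT26shCtrl (834 reads) and 25.5 FPKM in CT26shSetdb1 (2681 reads). The log2 ratio was 1.57, with 3.11 times the reads (2.88 to 3.36). Mxi1 has 3 annotated promoter windows, and the gene-level values do not say which start the reads came from. None of these windows, nor those of Mxd1 and Mxd3, held CACGTG.

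The read ratios of Mxd1, Mxd3 and Mxi1 lay between 3.11 and 3.25, with intervals that overlap one another. By contrast, Mxd4 (ENSMUSG00000037235, chromosome 5, 34173883 to 34187720), an MXD factor of differentiating and resting cells, was at 10.8 FPKM in CT26shCtrl and 6.99 FPKM in CT26shSetdb1. Its log2 ratio was -0.56 and its read ratio 0.627 (0.581 to 0.677). Mnt (ENSMUSG00000000282, chromosome 11, 74830920 to 74845725), the broadly expressed repressor of the network, was at 20.2 and 18.0 FPKM, a log2 ratio of -0.16. Neither Mxd4 nor Mnt passed 2-fold, and both were on the opposite side of 0 from the other 3.

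**Figure D3:**
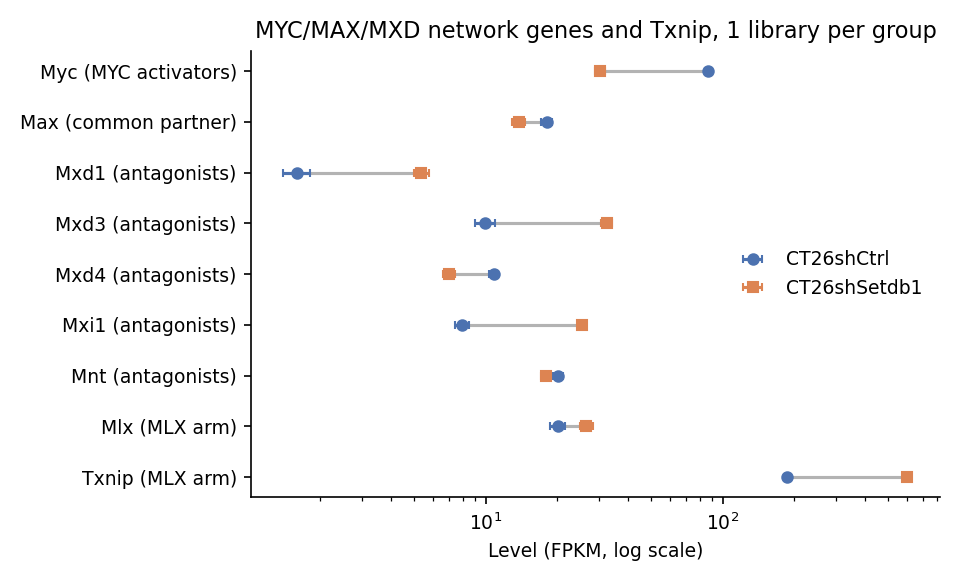
Levels of 9 members in FPKM on a log axis, with the control library as circles and the knockdown library as squares, joined by a line. Error bars are 95% Poisson intervals of the reads. The squares lie to the right of the circles for Mxd1, Mxd3, Mxi1, Mlx and Txnip, and to the left for Myc, Max, Mxd4 and Mnt.

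The make-up of the MAX-partner mRNAs differed between the libraries. Myc made up 63.1% of the summed FPKM of Myc, Mycn and the 5 antagonists in CT26shCtrl and 25.6% in CT26shSetdb1. Mxd1, Mxd3 and Mxi1 together made up 14.2% in CT26shCtrl and 53.3% in CT26shSetdb1. Mnt kept nearly the same share, 14.8% and 15.2%. The sum over all 7 was 137 FPKM in CT26shCtrl and 119 FPKM in CT26shSetdb1. The antagonists together came to 0.584 times the MYC level in CT26shCtrl and to 2.90 times in CT26shSetdb1. That ratio was 4.97 times as large in CT26shSetdb1 (4.63 to 5.33, a normal approximation to counting error). These are mRNA levels, and protein was not measured.

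**Figure D4:**
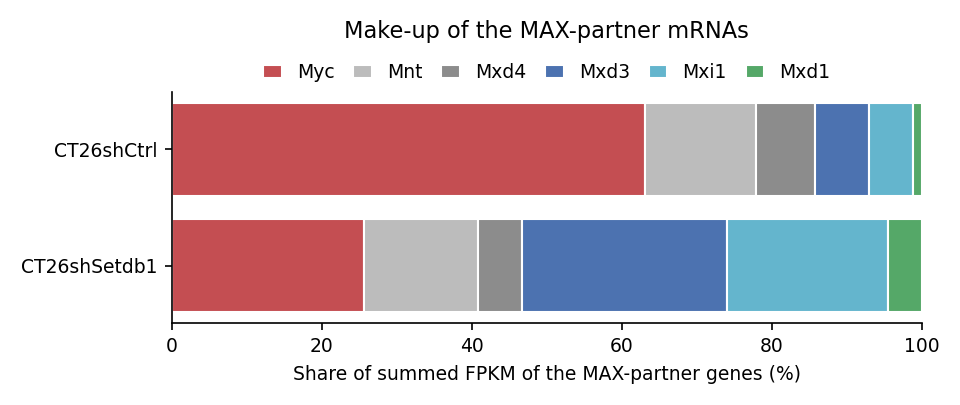
Share of each gene in the summed FPKM of the MAX-partner genes, in percent, for the control and knockdown libraries. Mycn, at 0 and 0.0137%, is not drawn. Myc takes 63.1% of the upper bar and 25.6% of the lower, while Mxd3 takes 7.24% and 27.3%.

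The order of the members also differed. In the control library the order of levels was Txnip, Myc, Mnt, Mlx, Max, Mxd4, Mxd3, Mxi1, Mxd1 and Mycn. Mnt and Mlx, Mlx and Max, and Mxd4 and Mxd3 were neighbours whose counting intervals overlapped. In the knockdown library the order was Txnip, Mxd3, Myc, Mlx, Mxi1, Mnt, Max, Mxd4, Mxd1 and Mycn. There Mxd3 at 32.4 FPKM (30.7 to 34.1) and Myc at 30.4 FPKM (28.9 to 32.0) were not apart beyond counting error, nor were Mlx and Mxi1. Among the MAX-partner genes Myc was thus the highest in CT26shCtrl, and in CT26shSetdb1 it stood level with Mxd3.

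In the MLX arm the partner itself was little different and the target gene was high. Mlx (ENSMUSG00000017801, chromosome 11, 101087277 to 101092207) was at 20.1 FPKM in CT26shCtrl and 26.6 FPKM in CT26shSetdb1, a log2 ratio of 0.38, with 1.28 times the reads (1.16 to 1.40). It shares 385 bases with Psmc3ip, which had 101 and 66 reads. Txnip (ENSMUSG00000038393, chromosome 3, 96557957 to 96561883) was the most abundant of the 10 in both libraries, at 187 FPKM in CT26shCtrl (10955 reads) and 602 FPKM in CT26shSetdb1 (35228 reads). The log2 ratio was 1.68, at percentile 98.2 of the genes measured, and the read ratio was 3.11 (3.04 to 3.18). The antisense gene Gm15441, which spans the whole of Txnip, had 12 reads and 35.

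The glucose-sensing partners of MLX differed in level. Mlxip, which encodes MondoA, was at 6.30 and 7.40 FPKM, a log2 ratio of 0.20. Mlxipl, which encodes ChREBP, had 8 reads in CT26shCtrl and 155 in CT26shSetdb1, from 0.0771 to 1.49 FPKM. Its read ratio was 18.7, with a wide interval of 9.28 to 44.2, and its log2 ratio was 1.21. Mlxipl thus stayed below Mlxip in level while its own ratio was the larger.

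Of the other listed genes of the network outside the 10 members, none passed 2-fold on the log2 scale used here. Mga, a large MAX partner with a T-box domain, was at 1.37 and 0.661 FPKM, a log2 ratio of -0.52. Because its level was low, that ratio understates a read ratio of 0.465 (0.389 to 0.555). The E-box factors Usf1 and Usf2, which bind the same motif without MAX, had log2 ratios of 0.46 and -0.06. Of the 6 genes listed, 5 reached 1 FPKM and Mlxipl was the 1 called higher. It reached 1 FPKM in CT26shSetdb1 alone, so its call is no support for a difference in the list.

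Txnip belongs to the alpha-arrestins, adaptors that direct membrane proteins to endocytosis, and 3 of its 5 listed relatives were expressed. Arrdc2 was at 3.47 and 8.51 FPKM and Arrdc3 at 1.51 and 4.40 FPKM, log2 ratios of 1.09 and 1.11 that were called higher. Arrdc1 was at 8.06 and 14.7 FPKM, a log2 ratio of 0.79. Arrdc4, the relative most often described beside Txnip as a MondoA target, had no reads in either library, as did Arrdc5. The Arrdc4 promoter window held a CACGTG at position -193.

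Genes of the thioredoxin system, of glucose uptake and use, and for other proteins linked to TXNIP were then compared. Not all of them encode proteins that TXNIP is known to bind or act on. Of 23 listed thioredoxin and Txnip partner genes, 20 reached 1 FPKM, and their log2 ratios had a median of 0.32. Of these, 6 were called higher (30.0%) and 2 lower (10.0%), next to 6.81% and 4.85% of the genes measured. Slc2a1, the glucose transporter GLUT1 that TXNIP removes from the membrane, was at 34.3 FPKM in CT26shCtrl and 169 FPKM in CT26shSetdb1, a log2 ratio of 2.27. Hk1, a hexokinase, was at 22.0 and 96.3 FPKM, a log2 ratio of 2.08. The 2 lowest were thioredoxin reductases, Txnrd3 from 8.85 to 2.41 FPKM (-1.53) and Txnrd1 from 37.6 to 12.6 FPKM (-1.50). Thioredoxin itself, Txn1, was at 163 and 188 FPKM, a log2 ratio of 0.20. The ubiquitin ligase gene Itch, whose product marks TXNIP for degradation, had 472 and 182 reads, a log2 ratio of -0.85. Txn1 and Itch are outside the rule for named genes and were added for their known contact with TXNIP.

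Listed genes that MYC is known to induce were mostly lower in CT26shSetdb1. Of 47, 46 reached 1 FPKM, and 39 of these had ratios below 0. Past 2-fold, 13 were lower (28.3%) and 1 higher (2.17%), against 4.85% and 6.81% of all genes, and the median log2 ratio was -0.76. Shmt2, the mitochondrial serine hydroxymethyltransferase, was at 305 and 79.3 FPKM, a log2 ratio of -1.93. Srm, the spermidine synthase, was at 268 and 88.6 FPKM, a log2 ratio of -1.59. Ldha, the lactate dehydrogenase, was the exception, at 585 and 2345 FPKM, a log2 ratio of 2.0. Ldha shares its protein match with 26 other loci, and its ratio was also 2.0 with the reads of all of them added up. Cdc25a, a cell-cycle phosphatase, was next highest at 0.63. The list was drawn up with earlier results of these libraries known, and many of its members act in the nucleolus, so it does not separate MYC targets from that class.

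Fewer of the genes that MYC is known to repress were measured. Of 14, 10 reached 1 FPKM, and the median of their log2 ratios was 0.72. Past 2-fold, 3 were higher (30.0%) and 1 lower (10.0%), where all genes gave 6.81% and 4.85%. Ccng2, an atypical cyclin of resting cells, was at 4.69 and 27.1 FPKM (2.30). Gadd45g, a stress-induced growth inhibitor, was at 24.9 and 80.3 FPKM (1.65). Its paralog Gadd45a went the other way, at 56.0 and 7.05 FPKM (-2.82), and Klf6 had a log2 ratio of -0.36. Cdkn1a, the p21 inhibitor named here after its values were seen, was nearly even at 225 and 211 FPKM. The ratios of known MYC-repressed genes thus ran in both directions.

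**Figure D5:**
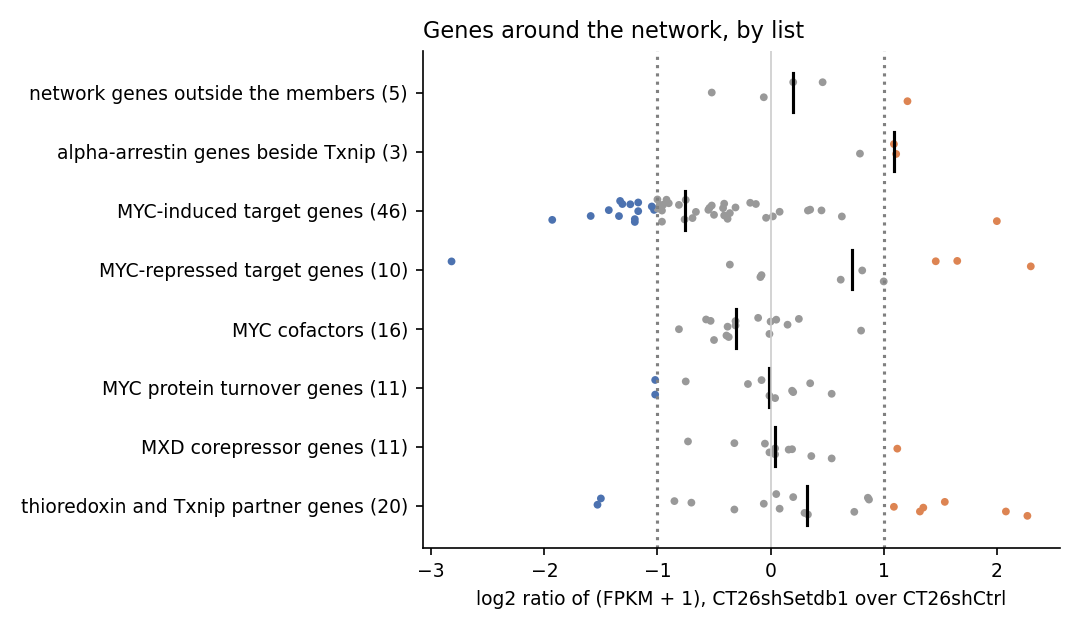
Log2 ratios of (FPKM + 1), knockdown over control, for each gene at 1 FPKM or more in 8 lists, with the number of genes in brackets. Black bars are medians, dotted lines mark 2-fold, and orange and blue points are genes called higher and lower. The 46 MYC-induced genes centre on -0.76 with Ldha alone at 2.0, whereas the 16 cofactors stay within 2-fold.

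Genes for the proteins that work with MYC and with the MXD factors differed less. None of 16 MYC cofactor genes passed 2-fold in either direction, with a median of -0.31 and 11 of 16 below 0. The lowest were Wdr5 (-0.81), whose product recruits MYC to chromatin, and Hcfc1 (-0.57). The highest was Zbtb17 (0.80), which encodes MIZ1, the partner through which MYC represses genes, followed by Ccnt1 (0.25). Of 13 genes of MYC protein turnover, 11 reached 1 FPKM, and 2 of them (18.2%) were called lower, with 4.85% of all genes lower. These were Huwe1, a ubiquitin ligase, at 13.9 and 6.33 FPKM (-1.02), and Gsk3b, a kinase that marks MYC for degradation, at 6.46 and 2.68 FPKM (-1.02). The highest were the deubiquitinase gene Usp28 (0.54) and Trim32 (0.35).

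Among 13 corepressor genes used by MXD proteins, 11 reached 1 FPKM, and 1 (9.09%) was called higher, a share near the 6.81% of all genes. Sap30, a SIN3 subunit, was at 9.47 and 21.8 FPKM, a log2 ratio of 1.12. Hdac1 followed at 0.54, and the lowest were Ncor1 (-0.73) and Rbbp4 (-0.32). The median was 0.04, a value that changed sign with the scaling of the libraries.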

How the data were processed

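The authors deposited FPKM values per gene, per the file headers, with the length of each gene model in bases and other annotation. The submitters' processing notes name CASAVA, HISAT2, featureCounts 1.5.0-p3 and GRCm38; the use of strand is not given in the sources used here. Of 10 members, 9 had the same position in GENCODE M21. Deposited FPKM times length was a whole multiple (tolerance 0.01) of one step for 100.0% of values above 0, which gave the reads and showed a shared depth of 18731117. Log2 ratios of (FPKM + 1), with a filter of 1 FPKM in at least 1 library, were computed in Python 3.11.15 with numpy 2.4.6, pandas 2.3.3 and scipy 1.17.1, and tested on simulated data. No test between conditions was possible. Named genes were Setdb1, the members, the network and alpha-arrestin lists, and the 2 highest and 2 lowest of each other list. Of 35 genes so named from lists, 9 share a protein match with another locus and 12 overlap a gene with reads. Members and lists were chosen with earlier results of these data known. Alternatives were a pseudocount of 0.1, filters of 0 or 5 FPKM, 4 scalings, a 1.5-fold threshold and reads summed over loci with the same protein match.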

Additional observations from a re-analysis of the deposited data

How the results depend on the processing

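The members called, 4 higher and 1 lower, kept those counts under every alternative run, and the ratio of antagonists to MYC was 4.97 under each scaling, which cancels in it. The Myc log2 ratio ran from -1.53 to -1.48 and that of Txnip from 1.63 to 1.68. Without a filter on low values the median was 0.20 for the members, 0.0821 for other network genes, 0.79 for alpha-arrestins, 0 for MYC-repressed genes and 0.20 for thioredoxin and partner genes, since genes with few reads entered. At 5 FPKM, fewer genes were left: 0 other network genes and 1 alpha-arrestin were higher, and the thioredoxin median was 0.53. The corepressor median was -0.000343 with own read totals and -0.00392 with the upper quartile. The 13 MYC-induced genes called lower became 18 with own read totals and the upper quartile, and 16 when scaled without the 100 highest genes. Over all genes, lower calls also rose under these scalings, from 518 to 566, 571 and 548 in that order. With 0.1 FPKM added the MYC-induced count was 17, and the count over all genes was not computed. At 1.5-fold, 26 MYC-induced genes were lower and 2 higher, and 6 MYC-repressed genes were higher and 1 lower. Of the cofactors 1 was higher and 1 lower, and of the corepressor genes 1 was higher and 1 lower. Of the thioredoxin and partner genes 9 were higher and 4 lower, and of the turnover genes 0 were higher and 3 lower. Of the alpha-arrestins 3 were higher and 0 lower. Of all genes measured, 16.9% were higher and 14.3% lower at that threshold. Of 72 alternative values of single members, 68 stayed within counting error, 4 moved and 0 reversed. A filter cannot change the ratio of a single gene, and summing reads over loci left every member's ratio as it was. Those alternatives therefore add nothing to the 68, and only the pseudocount and the scalings could move a member. No paired analysis was possible because the design has a single library in each arm, and neither could be left out. Read depth limits what can be said of genes with few reads, among them Mycn, Mycl and Mlxipl in CT26shCtrl.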

Other observations

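The authors' table marks 99 genes as basic helix-loop-helix factors, 7 of them members described above. Of the other 92, 24 reached 1 FPKM, and 6 of these were called higher and 0 lower, with a median log2 ratio of 0.26. Those past 2-fold were 25.0% of the 24, where 11.7% of all genes measured passed it and 6.81% were called higher. One of them, Mlxipl, reached 1 FPKM in CT26shSetdb1 alone. Besides Mlxipl they were the ID inhibitors Id1 (10.5 and 65.8 FPKM, log2 ratio 2.53), Id2 (7.40 and 31.8 FPKM, 1.97) and Id3 (4.23 and 32.6 FPKM, 2.68), and the clock-linked repressors Bhlhe40 (23.7 and 89.9 FPKM, 1.88) and Bhlhe41 (1.72 and 5.01 FPKM, 1.14). ID proteins lack a DNA-binding region and hold other helix-loop-helix factors off DNA, and the BHLHE40 and BHLHE41 proteins are repressors that bind E-boxes. These genes were named after their values were seen.

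Genes with an E-box in the promoter window were not shifted much as a whole. Of 7650 measured genes with a window, 952 held CACGTG, with a median log2 ratio of -0.10, against 0.01 for the 6698 without. Of those with it, 4.73% were higher and 4.73% lower, and of those without, 6.30% and 3.91%. Among the MYC-induced genes with a window, 12 of 38 (31.6%) held CACGTG, against 12.4% of all measured genes, but the median was -0.62 for those with it and -0.70 for those without. Of the 9 measured genes with the paired sites of Txnip, Txnip was the 1 called higher; the next were Nfkb2 (119.6 and 197 FPKM, log2 ratio 0.72) and Man2b2 (62.2 and 85.0 FPKM, 0.45), and the other 6 had ratios from -0.55 to -0.10.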
